A study of Arabidopsis thaliana with 12 samples.

Results

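Aquaporins are the channel proteins that let water, and in some classes small neutral solutes, cross plant membranes. The genes described here were the rows of the deposited expression table that are described as aquaporins or carry a PIP, TIP, NIP or SIP name, and 35 of the 32833 genes in the table met that rule. They comprised 10 plasma membrane intrinsic protein (PIP) genes, 10 tonoplast intrinsic protein (TIP) genes, 9 NOD26-like (NIP) genes, 3 small basic (SIP) genes, and 3 genes that had a description but no name. The table lists 3 more PIP genes under the names PIP1B, PIP1.4 and PIP2B, which the rule does not match. They were not counted as members, and their values are given only where a result touches them.

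PIPs sit in the plasma membrane and carry water into and out of the cell. The PIP1 proteins generally need a PIP2 partner to reach that membrane, and PIP2 proteins are the stronger water channels. TIPs sit in the tonoplast, the membrane of the vacuole, and buffer the water content of the cytoplasm. NIPs carry mainly solutes such as boric acid, and SIPs are found in the endoplasmic reticulum.

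The study sequenced poly(A) RNA of whole Arabidopsis thaliana seedlings of the Col-0 ecotype, 10 days old, in 12 libraries. They formed 4 groups of 3 libraries, in which wild type and the mutant atdamt1 were each taken unheated at 0 h (control) and after heating for 2.5 h. The series title names METTL4, an adenine methyltransferase, and heat tolerance, while the mutant allele and the temperature are not stated in the labels. No unheated group at 2.5 h was analysed here, so elapsed time and heat cannot be told apart. The labels do not tell whether replicate libraries were grown apart, and the spread behind each p-value may therefore be partly technical.

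Depth was 21719791 to 23519127 reads per library, and aquaporins together held 0.387% to 0.654% of the summed RPKM, a read count divided by gene length and by library depth. The locus AT1G19340, taken here as the METTL4 homolog, was at 2.50 to 3.10 RPKM in wild-type controls and 0.808 to 1.29 RPKM in atdamt1 controls, and at 1.30 to 1.54 and 0.146 to 0.475 RPKM in the heated libraries of the same genotypes. Green tissue markers summed to 21078 to 30819 RPKM and 8 seed markers to at most 0.365 RPKM. The 11 root markers summed to 1342 to 2079 RPKM in controls and to 191 to 449 RPKM after heat, most of it from PYK10, an abundant root beta-glucosidase. Of the root markers, 7 could be tested and 3 were lower after heat in each genotype. Of all genes tested in the same way, 52.6% were lower in wild type and 56.2% in atdamt1. COBL9, EXP7, NRT2.1 and IRT1 were near 0 throughout. In whole seedlings fewer cells of a type and less RNA per cell cannot be told apart. Chloroplast-encoded genes took 0.320% to 1.07% of the summed RPKM in controls, 0.390% to 4.05% in heated wild type and 3.17% to 6.01% in heated atdamt1.

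The coding sequences hold a site at which the SIP class stands apart. Each aquaporin pore is lined by a pair of short loops that carry the residues Asn-Pro-Ala, the NPA boxes. The first box is shown for members of each class because it is changed in every SIP gene. It does not separate PIPs, TIPs and most NIPs from each other, and NIP5-1 is shown as a NIP in which it is changed. The 9 bases that encode the box are in capitals, with 9 flanking bases on each side, all 5′ to 3′ on the coding strand, from the RefSeq genome of build TAIR10.1, and the coordinates are those of the capitals.
PIP2-3, chr2:15618212-15618220, plus strand: ggtcacataAACCCTGCGgtgacgttt
TIP2-1, chr3:5505883-5505891, plus strand: ggccatgtgAACCCAGCCgtcactttt
NIP5-1, chr4:6432369-6432377, minus strand: gctcacctaAACCCATCActgaccata
SIP1-1, chr3:1073816-1073824, minus strand: gctagcttcAATCCTACCggaagcgct
SIP1-2, chr5:6056186-6056194, minus strand: gctagcttcAATCCTTGTggaaacgca
SIP2;1, chr3:21079432-21079440, minus strand: gggctttatAATCCTTTGaccgctttg
Codons for Asn-Pro-Ala stood at both positions in all 10 TIP genes and in all 13 PIP genes, the 3 under other names included. The first box was changed in all 3 SIP genes, in which the third codon was acc, tgt and ttg in the order shown, while the second box was intact in all 3. Of the 9 NIP genes, 7 had an intact first box and 5 an intact second box. NIP5-1 had neither, and its first box ended in tca.

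Expression was concentrated in few genes. Of the 35 members, 15 reached a mean of 10 RPKM in at least 1 group, comprising 8 PIPs, 4 TIPs, NIP1-2, SIP1-1 and SIP2;1. A further 6 were at 0 in every library, namely the 3 unnamed genes, NIP4-1, and TIP1-3 and TIP5-1, which are known from pollen. Another 6 were above 0 but too low to test, among them TIP3-1 and TIP3-2, the TIPs of seed storage vacuoles, which did not exceed 0.307 RPKM. The 23 members that reached 1 RPKM in at least 3 libraries were tested, and they were all 10 PIPs, 6 TIPs, 4 NIPs and all 3 SIPs. NIP1-1 reached 1 RPKM in controls only and NIP6-1 in wild type only, so both entered the test through groups where they were high. In atdamt1, TIP4-1 reached it in controls only and PIP2-4 in heated libraries only.

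In wild-type controls the highest level was that of TIP1-2 at 1119.8 ± 354 RPKM (SD, n = 3), followed by TIP2-1 at 548 ± 230.2 RPKM, TIP1-1 at 337 ± 24.7 RPKM and PIP2-7 at 299.8 ± 76.7 RPKM. The ranges of each neighbouring pair in that order overlapped. Next among the members came PIP2-1 at 187 ± 43.6 RPKM, below every PIP2-7 value. In atdamt1 controls the first 4 genes stood in the same order, and there the ranges of neighbours did not overlap. After heat TIP2-1 headed the order in both genotypes, at 989 ± 117 RPKM in wild type and 1011 ± 150.2 RPKM in atdamt1, above every value of any other aquaporin.

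**Figure D1:**
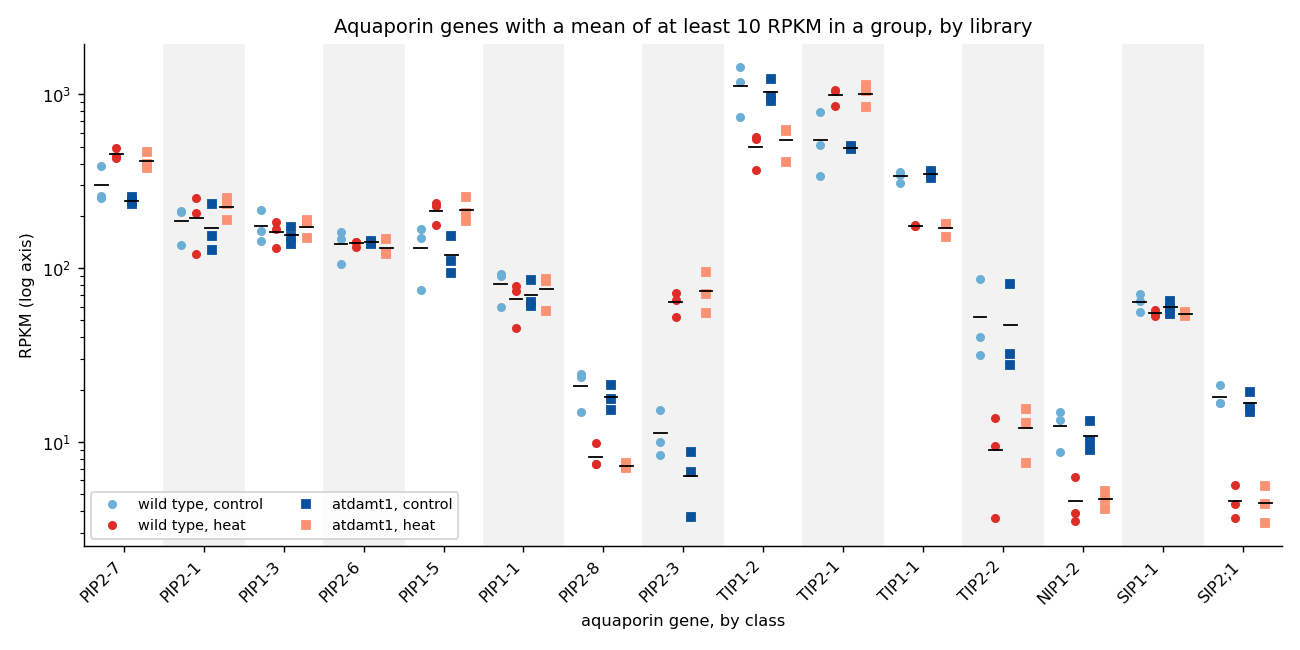
RPKM on a log axis in each of the 12 libraries for the 15 aquaporin genes with a group mean of at least 10 RPKM, ordered by class and by level in wild-type controls. Points are libraries and black bars are group means of 3 libraries. PIP2-3 stands far higher after heat, at 52.7 RPKM or above in all 6 heated libraries against 15.3 RPKM or below in all 6 controls, while TIP2-1 and TIP1-2 change places.

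Heat moved the aquaporin transcripts in both directions, with most of the rises among PIPs and a fall in most TIPs, NIPs and SIPs that passed. In wild type, PIP1-5, PIP2-3, PIP2-7 and TIP2-1 were higher after heat and 10 members were lower, at an adjusted p below 0.05 from limma over 17628 genes. Among all genes tested 62% passed, 9.41% higher and 52.6% lower. In atdamt1, 5 members were higher and 11 lower, against a background of 66.5%, with 10.3% higher and 56.2% lower. In both genotypes the share of members called was near that of all genes, and the share lower was not above it. The same 4 members were higher and the same 10 lower in both genotypes, and 7 passed in neither. In wild type the libraries of 4 members were all higher and of 10 all lower than the controls, where 67% of all genes had no overlap, 11% higher and 56% lower. In atdamt1 these numbers were 5 and 10, where 70% of all genes had no overlap, 11.4% higher and 58.6% lower. NIP5-1 passed in atdamt1 with overlapping libraries. PIP2-4 (higher) and TIP4-1 (lower) passed in atdamt1 alone, and the difference between the genotypes was not called for either (adjusted p from limma = 0.98 and 0.979).

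By class, 3 of the 10 PIPs rose and 2 fell in wild type, with a median log2 change of 0.02. Of the 6 TIPs tested, 1 rose and 3 fell, with a median of -0.72. In atdamt1 the PIPs had 4 higher and 2 lower with a median of 0.30, and the TIPs 1 higher and 4 lower with a median of -0.90. None of the 4 NIPs rose and 3 fell in each genotype, and 2 of the 3 SIPs fell in each. Beside these counts of few genes, 9.41% of all genes were higher and 52.6% lower in wild type, and 10.3% and 56.2% in atdamt1. All genes tested had a median of -0.41 in wild type and -0.44 in atdamt1, and all 23 members -0.39 and -0.12.

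RPKM values are relative to the library total, and the counts depended on how libraries were scaled. Median-of-ratios scaling moved the median of all genes up by 0.43 in wild type and 0.45 in atdamt1, to near 0. On that scale 7 members were higher and 6 lower in wild type, and 11 were higher and 6 lower in atdamt1. Of all genes, 28.8% were higher and 26.7% lower on that scale in wild type, and 27.6% and 27% in atdamt1. Across the 4 scalings tried, PIP1-5, PIP2-3 and PIP2-7 were higher and NIP1-1, NIP1-2, PIP2-8, SIP2;1, TIP1-1 and TIP2-2 lower in wild type. In atdamt1 the members called in all 4 were PIP1-5, PIP2-3, PIP2-4, PIP2-7 and TIP2-1 among the higher, and NIP1-1, NIP1-2, PIP2-8, SIP2;1, TIP1-1 and TIP4-1 among the lower. Of these, NIP1-1 in both genotypes and PIP2-4 and TIP4-1 in atdamt1 reached 1 RPKM only where they were high. The filter was set before scaling, so their calls stay tied to it under every scaling. With the chloroplast share as a covariate, 1 member (PIP2-3) was called higher in atdamt1. The genes called there fell in number from 1817 to 976 higher and from 9913 to 4498 lower over all genes tested. The changes of PIP1-5, PIP2-7 and TIP2-1 were 0.75 ± 0.50, 0.80 ± 0.28 and 0.78 ± 0.43 with the covariate, with larger standard errors than without it. In atdamt1 the chloroplast share was 0.320% to 0.979% in controls and 3.17% to 6.01% in heated libraries, without overlap. The covariate thus largely follows heat in that genotype, and a call lost under it cannot tell the share from heat.

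**Figure D2:**
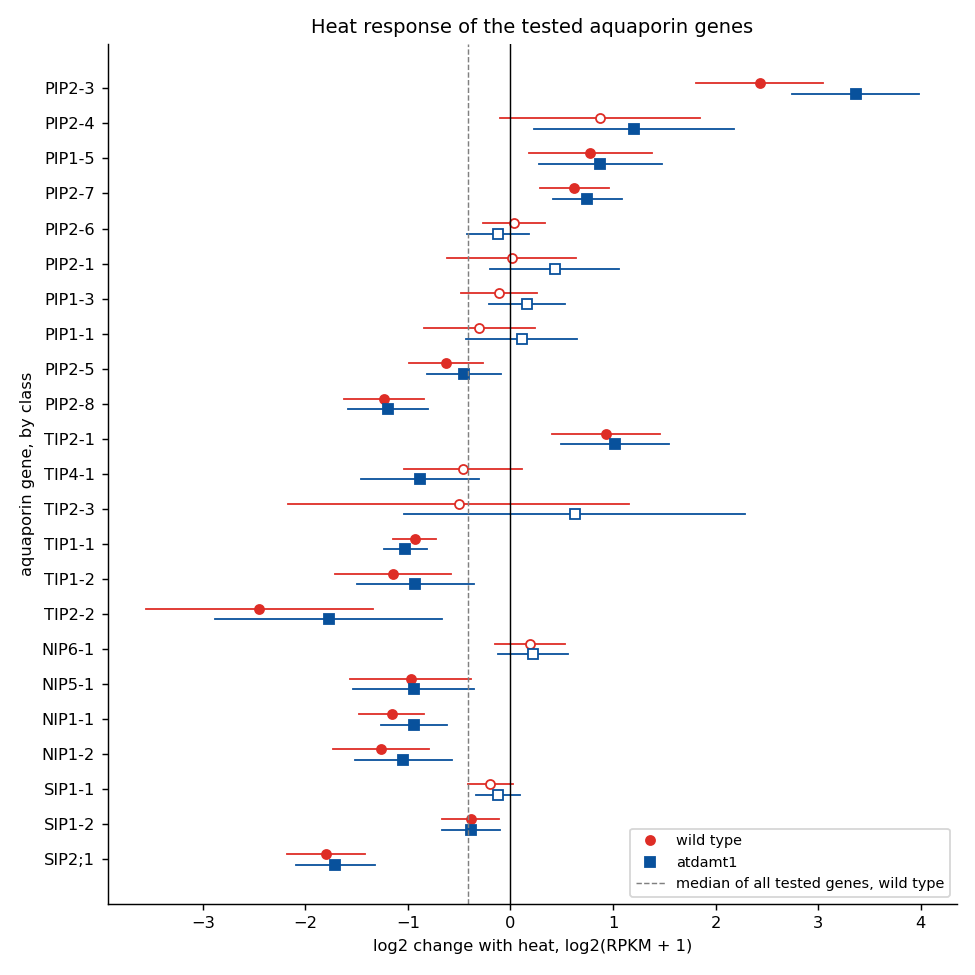
Log2 change with heat on the log2(RPKM + 1) scale, with 95% confidence intervals from limma, for the 23 tested aquaporin genes in wild type (circles) and atdamt1 (squares). Filled symbols passed an adjusted p below 0.05, and the dashed line marks the median of all genes tested in wild type, -0.41. PIP2-3 lies at the far right in both genotypes (2.43 and 3.37), and TIP2-2 and SIP2;1 at the far left.

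PIP2-3 (AT2G37180, chr2:15617635-15619155, plus strand), a water channel of the PIP2 subgroup, rose most. Wild-type controls stood at 15.3, 8.36 and 9.97 RPKM and heated wild type at 65.5, 72.3 and 52.7 RPKM. In atdamt1 the controls stood at 6.73, 3.71 and 8.7 RPKM and the heated libraries at 54.9, 94.7 and 71.4 RPKM. All heated libraries were above all controls. The means were 5.67-fold higher in wild type and 11.5-fold higher in atdamt1. On the log2(RPKM + 1) scale the changes were 2.43 ± 0.28 (SE, adjusted p = 1.98e-05) and 3.37 ± 0.28 (adjusted p = 1.87e-06). Both were called under every one of the 23 alternatives to the fit, some of which alter only the spread and not the change.

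The value of PIP2-3 has to be read with its neighbour PIP2B (AT2G37170, chr2:15613368-15615022, minus strand). The pair lie head to head, 2612 bases apart with 0 genes annotated between them, and their coding sequences of 858 bases are 94.8% identical, with 45 differences. Of the 50-base stretches of PIP2-3 transcripts, 21.7% also occur in another aquaporin gene, whereas the share was 0 for every other member tested, so reads may be shared between the pair in counting. A stretch of 90 coding bases (403 to 492 of each coding sequence) holds 12 of the differences, in capitals, and is shown as an example of where reads can tell the genes apart.
PIP2-3, chr2:15618302-15618391, plus strand: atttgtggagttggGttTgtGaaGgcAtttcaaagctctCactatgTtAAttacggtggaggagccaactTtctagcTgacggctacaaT
PIP2B, chr2:15614179-15614268, minus strand: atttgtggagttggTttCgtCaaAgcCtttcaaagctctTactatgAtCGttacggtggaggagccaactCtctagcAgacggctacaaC
PIP2B stood at 41.6, 26.9 and 32.1 RPKM in wild-type controls and 28.6, 66.5 and 42.8 RPKM in heated wild type. Its libraries overlapped, and its log2 change of 0.39 ± 0.32 did not pass (adjusted p = 0.31). In atdamt1 it went from 27.9, 20.9 and 36.3 RPKM to 46.2, 44.2 and 83.1 RPKM, a log2 change of 0.97 ± 0.32 that passed (adjusted p = 0.0175) but did not without control replicate 2 (0.0736) or heat replicate 3 (0.0802). With the chloroplast covariate that change was 0.071 (adjusted p = 0.927). The ratio of PIP2-3 to PIP2B was 0.33 ± 0.0325 in wild-type controls and 1.53 ± 0.654 after heat (SD, n = 3), and 0.219 ± 0.0362 and 1.4 ± 0.666 in atdamt1. Summed over the pair, where the assignment of shared reads matters less, the level went from 44.7 ± 11.1 to 109 ± 25.4 RPKM in wild type and from 34.8 ± 10.2 to 131 ± 27.5 RPKM in atdamt1, with no overlap.

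**Figure D3:**
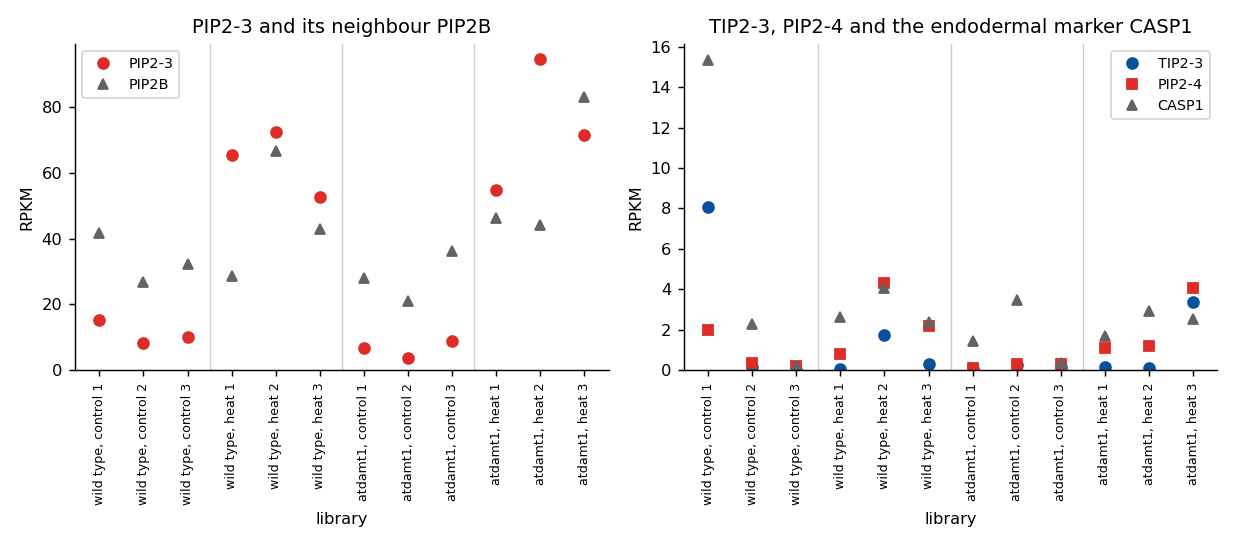
RPKM in each of the 12 libraries, controls and heat side by side. Left, PIP2-3 (circles) lies below PIP2B (triangles) in all 6 controls and above it in 5 of the 6 heated libraries. Right, TIP2-3, PIP2-4 and the root endodermis marker CASP1 are uneven within groups, and wild-type control replicate 1 holds the highest TIP2-3 (8.07 RPKM) and CASP1 (15.4 RPKM).

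PIP2-7 (AT4G35100, chr4:16708361-16710407, plus strand) was the most abundant PIP member in all 4 groups. PIP1B, outside the rule, had the higher mean in controls, with overlapping ranges. The means were 309 RPKM for PIP1B (231, 349 and 347 RPKM) and 299.8 RPKM for PIP2-7 in wild-type controls, and 285 and 245 RPKM in atdamt1 controls. PIP2-7 stood at 259, 388 and 252 RPKM in wild-type controls and 444, 428 and 489.8 RPKM after heat. In atdamt1 it stood at 243, 234 and 258 RPKM in controls and 469, 399 and 375 RPKM after heat. Heated libraries were above controls without overlap, with means 1.51-fold and 1.69-fold higher. The log2 changes were 0.62 ± 0.16 in wild type (adjusted p = 0.00424) and 0.75 ± 0.16 in atdamt1 (adjusted p = 0.00119). With the chloroplast covariate the change in atdamt1 was 0.80 ± 0.28 and did not pass (adjusted p = 0.052).

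PIP1-5 (AT4G23400, chr4:12220641-12222468, plus strand), of the PIP1 subgroup, rose with them. Its values were 75.2, 149 and 168 RPKM in wild-type controls and 177, 229 and 238 RPKM after heat, and 109, 94.4 and 154 RPKM in atdamt1 controls and 255, 187 and 209 RPKM in heated atdamt1. The groups did not overlap, and the means were 1.64-fold and 1.82-fold higher. The log2 changes were 0.78 ± 0.28 (adjusted p = 0.0275) and 0.88 ± 0.28 (adjusted p = 0.0145). In wild type the call was lost without control replicate 1, the library with the lowest value (log2 change 0.42, adjusted p = 0.107), and without heat replicate 2 or 3 (0.0767 and 0.0824). In atdamt1 it was lost without control replicate 2 (0.0602) or heat replicate 1 (0.0569). With the chloroplast covariate the changes were 0.75 ± 0.30 and 0.75 ± 0.50 and did not pass (adjusted p = 0.0535 and 0.282).

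PIP2-8 (AT2G16850, chr2:7301334-7303509, plus strand), the closest relative of PIP2-7 in coding sequence at 84.6% identity, went the other way. Controls held 23.7, 24.6 and 14.9 RPKM in wild type and 21.2, 17.6 and 15.3 RPKM in atdamt1. Heated libraries held 7.46, 7.43 and 9.8 RPKM and 7.16, 7.13 and 7.52 RPKM. Every heated library was below every control, with means 2.56-fold and 2.48-fold lower. The log2 changes were -1.24 ± 0.18 (adjusted p = 1.07e-04) and -1.19 ± 0.18 (adjusted p = 1.27e-04). PIP2-5, a low member at 3.61 ± 0.574 RPKM in wild-type controls and 2.0 ± 0.622 RPKM after heat, also fell, by 0.63 ± 0.17 on the log2 scale (adjusted p = 0.00558), and this did not pass under median-of-ratios or quantile scaling (0.167 and 0.619). The fall in atdamt1 was 0.45 ± 0.17 (adjusted p = 0.0291), a call that was lost under each of the 3 other scalings, under the chloroplast covariate (0.929) and without control replicate 1 or 3 or heat replicate 1 (adjusted p = 0.0611, 0.0905 and 0.108).

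The other abundant PIPs did not pass the test in either genotype. PIP2-1, a main plasma membrane water channel of roots and leaves, stood at 137, 209.6 and 215 RPKM in wild-type controls and 121, 253 and 207 RPKM after heat. In atdamt1 its values were 153, 127 and 234 RPKM in controls and 234, 189 and 253 RPKM after heat. The 95% confidence intervals of its log2 change ran from -0.62 to 0.64 in wild type and -0.20 to 1.06 in atdamt1, so a change of moderate size in either direction was not detectable with 3 libraries. PIP2-6 was steadier, at 106, 161 and 147 RPKM in wild-type controls, 142, 133 and 142 RPKM in heated wild type, 139, 140.1 and 144 RPKM in atdamt1 controls and 147, 123 and 120.0 RPKM in heated atdamt1, with intervals of -0.27 to 0.34 and -0.43 to 0.19. PIP1-3 stood at 144, 217 and 165 RPKM in wild-type controls, 131, 184 and 167 RPKM in heated wild type, 152, 138 and 173 RPKM in atdamt1 controls and 189, 149 and 181 RPKM in heated atdamt1. All of its groups overlapped. PIP1-1 stood at 59.6, 92.9 and 90.6 RPKM in wild-type controls, 45.2, 79.4 and 73.7 RPKM in heated wild type, 60.2, 64.0 and 85.1 RPKM in atdamt1 controls and 84.5, 56.4 and 86.4 RPKM in heated atdamt1, also with overlap. On the median-of-ratios scale PIP2-6 was called higher in both genotypes, and PIP1-1, PIP1-3 and PIP2-1 in atdamt1. Of the PIP1 genes under other names, PIP1.4 was lower after heat, from 98.7 ± 10.7 to 56.6 ± 5.77 RPKM in wild type (log2 change -0.79 ± 0.10, adjusted p = 4.24e-05). PIP1B, at 309 ± 67.5 RPKM in wild-type controls and 297 ± 40.1 RPKM after heat, did not pass (adjusted p = 0.861).

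The tonoplast class changed its composition. TIP2-1 (AT3G16240, chr3:5505360-5507050, plus strand), a TIP2 channel that passes ammonia as well as water, rose from 339.8, 795 and 509.8 RPKM to 855, 1067 and 1045 RPKM in wild type. In atdamt1 it rose from 490.1, 488 and 504 RPKM to 1141, 847 and 1046 RPKM. The groups did not overlap, and the means were 1.8-fold and 2.05-fold higher. The log2 changes were 0.93 ± 0.24 (adjusted p = 0.0055) and 1.02 ± 0.24 (adjusted p = 0.00285). The first did not pass under quantile normalization (0.0636) nor the second with the chloroplast covariate (0.78 ± 0.43, adjusted p = 0.198). Over 445 bases TIP2-1 overlaps the noncoding RNA AT3G03265 on the opposite strand, which was at 10.1 and 53.9 RPKM (means) in wild-type controls and heat, and over 120 bases it overlaps PNSB3. The library kit keeps strand, but the strand setting of the counting is not given in the sources used here, so a share of those reads cannot be assigned.

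TIP1-2 (AT3G26520, chr3:9722443-9723904, minus strand), of the TIP1 water channels, fell. Its values were 741, 1442 and 1176 RPKM in wild-type controls and 367, 556 and 565 RPKM after heat. In atdamt1 they were 975, 912 and 1227 RPKM in controls and 626, 409 and 616 RPKM after heat. All heated libraries were below all controls, with means 2.26-fold and 1.89-fold lower. The log2 changes were -1.15 ± 0.26 (adjusted p = 0.00237) and -0.93 ± 0.26 (adjusted p = 0.00784), and neither passed on the median-of-ratios scale (-0.63 and -0.39, adjusted p = 0.0665 and 0.246).

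TIP1-1 (AT2G36830, chr2:15445294-15446621, plus strand), its closest relative at 81.7% identity, fell as well. Controls held 309.7, 346 and 357 RPKM in wild type and 363, 329 and 351 RPKM in atdamt1. Heated libraries held 178, 174 and 176 RPKM and 152, 179.9 and 179 RPKM. All heated libraries were below all controls. The means were 1.92-fold and 2.04-fold lower, with log2 changes of -0.93 ± 0.10 (adjusted p = 8.21e-06) and -1.03 ± 0.10 (adjusted p = 3.90e-06).

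TIP2-2 (AT4G17340, chr4:9698940-9700472, plus strand), a TIP2 of roots, had the largest fall of any member in wild type. It stood at 31.5, 40.4 and 86.2 RPKM in wild-type controls and 3.66, 13.7 and 9.53 RPKM after heat. In atdamt1 it stood at 31.9, 27.8 and 81.1 RPKM in controls and 12.9, 7.52 and 15.5 RPKM after heat. Control replicate 3 was the highest library in both genotypes, and the heated libraries were below all controls even so. The means were 5.88-fold and 3.93-fold lower, and the log2 changes -2.45 ± 0.51 (adjusted p = 0.00127) and -1.77 ± 0.51 (adjusted p = 0.00858), the latter not passing on the median-of-ratios scale (-1.26, adjusted p = 0.0578). The root marker SCR fell in both genotypes too, from 9.98 to 1.98 RPKM in wild type, as did PYK10, from 1818 to 314 RPKM. Of the other root markers tested, CASP1, SHR and GL2 did not pass in either genotype (CASP1 at -0.02 ± 0.73 and 0.44 ± 0.73), PHO1 passed in wild type alone (-1.27 ± 0.52 and 0.23 ± 0.52) and WER in atdamt1 alone (-0.43 ± 0.20 and -0.62 ± 0.20). Their part in the fall of TIP2-2 was not tested.

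The remaining root members were low and uneven. TIP2-3 stood at 8.07, 0.155 and 0 RPKM in wild-type controls, 0.0382, 1.72 and 0.298 RPKM in heated wild type, 0.0727, 0.228 and 0.157 RPKM in atdamt1 controls and 0.147, 0.118 and 3.39 RPKM in heated atdamt1. Its log2 change in wild type was -0.51 ± 0.76 (adjusted p = 0.583), and it was 0.52 without control replicate 1. PIP2-4 stood at 1.97, 0.344 and 0.22 RPKM in wild-type controls, 0.771, 4.31 and 2.2 RPKM in heated wild type, 0.117, 0.276 and 0.317 RPKM in atdamt1 controls and 1.07, 1.21 and 4.04 RPKM in heated atdamt1. In wild-type controls, heated wild type and heated atdamt1, the same library (replicates 1, 2 and 3) held the most of both genes. PIP2-4 was called higher in atdamt1 (log2 change 1.20 ± 0.45, adjusted p = 0.0312), but not without heat replicate 3 (0.79, adjusted p = 0.138) or without any 1 of the 3 controls (0.0523 to 0.0782), and the change was 0.020 with the chloroplast covariate. The call was also lost with no filter (adjusted p from limma = 0.0508) and with a pseudocount of 5 (0.063). In atdamt1 only heated libraries of PIP2-4 reached 1 RPKM, so its call is tied to the filter, with controls near the floor. CASP1, a marker of the root endodermis, was at 15.4 RPKM in wild-type control replicate 1 and at 4.07 RPKM or less in the other 11 libraries. TIP4-1, at 1.1 ± 0.434 RPKM in atdamt1 controls and 0.126 ± 0.0534 RPKM after heat, fell by 0.88 ± 0.26 on the log2 scale (adjusted p = 0.0114). Its heated atdamt1 libraries held 5, 3 and 2 reads. In that genotype only controls reached 1 RPKM, so the call is tied to the filter and lies near the floor.

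Set against each other, the plasma membrane class gained on the tonoplast class after heat. The summed PIP level was 826, 1254 and 1065 RPKM in wild-type controls and 1135, 1392 and 1384 RPKM after heat, which overlap. In atdamt1 it was 887, 822 and 1075 RPKM in controls and 1443, 1208 and 1309 RPKM after heat, which do not. The summed TIP level was 1432, 2625 and 2130.1 RPKM in wild-type controls and 1403, 1814 and 1796 RPKM after heat. In atdamt1 it was 1860.4, 1758 and 2164 RPKM in controls and 1932, 1443 and 1860.0 RPKM after heat, and the groups of both genotypes overlapped. As log2 ratios of the group means, PIP moved by 0.31 and 0.51 and TIP by -0.30 and -0.14 in wild type and atdamt1, but on the median-of-ratios scale both classes were above their controls (PIP 0.83 and 1.06, TIP 0.21 and 0.41).

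The PIP share of PIP plus TIP is untouched by any factor applied to a whole library. It was 36.6, 32.3 and 33.3% in wild-type controls and 44.7, 43.4 and 43.5% after heat. In atdamt1 it was 32.3, 31.9 and 33.2% in controls and 42.8, 45.6 and 41.3% after heat. All 6 heated libraries stood above all 6 controls, while the genotypes overlapped within each treatment. With the 3 PIP genes of other names included, the means were 42.4 ± 2.76% and 50.5 ± 0.476% in wild type, and 40.8 ± 0.865% and 50.2 ± 1.82% in atdamt1 (SD, n = 3). These sums were given no p-value.

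Within the TIP class, the share of TIP2-1 was 26.0 ± 3.74% in wild-type controls and 59.3 ± 1.42% after heat, while that of TIP1-2 was 54.0 ± 1.92% and 29.4 ± 2.86%. The ratio of TIP2-1 to TIP1-2 was 0.458, 0.551 and 0.433 in wild-type controls and 2.33, 1.92 and 1.85 after heat. In atdamt1 it was 0.503, 0.535 and 0.411 in controls and 1.82, 2.07 and 1.7 after heat. The ratio was thus below 1 in every control and above 1 in every heated library. Summed over subgroups, TIP1 genes went from 1457 ± 374 to 672 ± 110.2 RPKM and TIP2 genes from 604 ± 228 to 999 ± 122 RPKM in wild type. All aquaporins together stood at 3218 ± 822 RPKM in wild-type controls and 3047 ± 383 RPKM after heat, a difference within the spread of the libraries. In atdamt1 they stood at 2955 ± 353 and 3136 ± 377 RPKM. This total also depends on scaling. On the median-of-ratios scale it was 1874, 3182 and 2754 in wild-type controls and 3055, 3966 and 3562 after heat. In atdamt1 it was 2555, 2242 and 2787 in controls and 4467, 3277 and 4039 after heat on that scale.

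**Figure D4:**
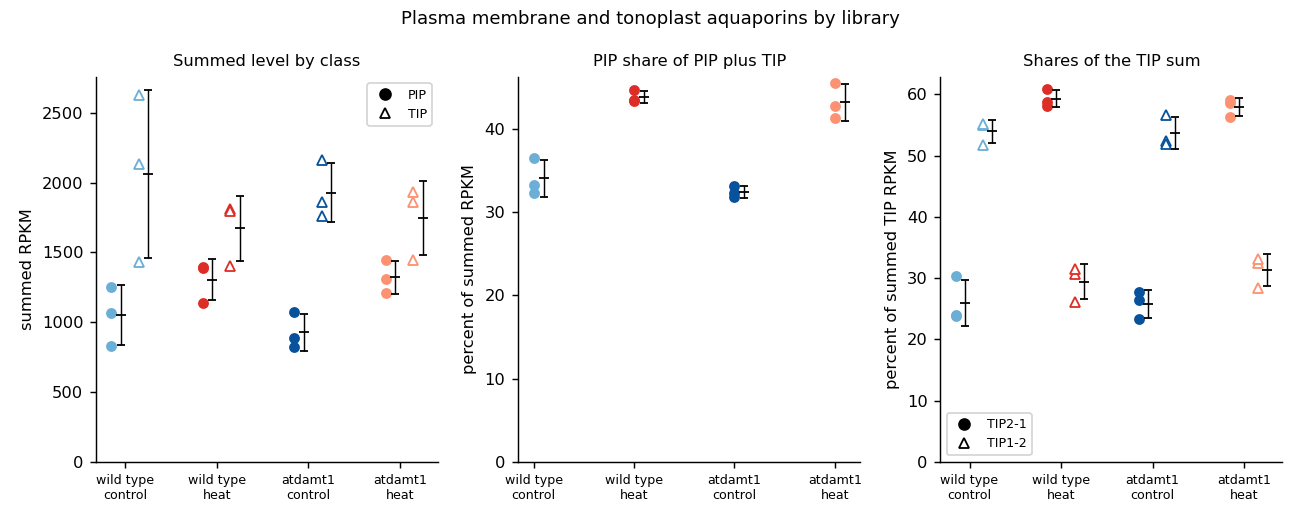
Values per library (coloured points) with the mean and SD of 3 libraries (black). Left, summed RPKM of the PIP and TIP members, middle, the PIP percent of PIP plus TIP, right, the percent of the TIP sum held by TIP2-1 and TIP1-2. The PIP share is 36.6% or below in all controls and 41.3% or above in all heated libraries, and TIP2-1 and TIP1-2 exchange ranks.

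Of the 9 solute-carrying NIPs, 4 could be tested and 3 of those fell in each genotype, where 52.6% (wild type) and 56.2% (atdamt1) of all genes were lower. NIP1-2 (AT4G18910, chr4:10366044-10368510, plus strand) stood at 8.79, 13.4 and 14.8 RPKM in wild-type controls and 3.5, 3.92 and 6.26 RPKM after heat. In atdamt1 it stood at 10.1, 9.02 and 13.3 RPKM in controls and 5.24, 4.09 and 4.69 RPKM after heat. Heated libraries were below controls throughout, with log2 changes of -1.26 ± 0.22 (adjusted p = 3.35e-04) and -1.05 ± 0.22 (adjusted p = 0.00117), the latter not passing with the chloroplast covariate (-0.88 ± 0.39, adjusted p = 0.11). NIP1-1, known as an arsenite channel, was at 2.09 ± 0.305 RPKM in wild-type controls and 0.397 ± 0.274 RPKM after heat, and fell by 1.16 ± 0.15 (adjusted p = 3.56e-05). It was below 1 RPKM in every heated library and entered the test through its controls alone, so this call is tied to the filter. NIP5-1, the root boric acid channel, was at 4.32 ± 0.792 RPKM in wild-type controls and 1.72 ± 0.431 RPKM after heat, and fell by 0.97 ± 0.27 (adjusted p = 0.00787). On the median-of-ratios and quantile scales NIP5-1 did not pass in wild type (adjusted p = 0.0648 and 0.158). In atdamt1 it went from 4.72 ± 2.22 to 1.82 ± 0.457 RPKM, with overlapping libraries. That call was lost on the same scales (adjusted p from limma = 0.0859 and 0.124) and with the chloroplast covariate (-0.88 ± 0.49, 0.201). NIP6-1, which passes boric acid to growing shoot tissue, was at 0.916 ± 0.114 RPKM in wild-type controls, 1.2 ± 0.316 RPKM in heated wild type, 0.475 ± 0.225 RPKM in atdamt1 controls and 0.707 ± 0.187 RPKM in heated atdamt1. It did not pass (intervals -0.15 to 0.53 and -0.13 to 0.56), but was called higher in both genotypes on the median-of-ratios scale (log2 changes 0.45 and 0.42, adjusted p from limma = 0.0345 and 0.0429) and the quantile scale (0.65 and 0.48, adjusted p = 0.00398 and 0.019). NIP6-1 overlaps RPL7A on the opposite strand over 26 bases, and some of its few reads may not be its own. RPL7A was at 71.7 and 28.5 RPKM (means) in wild-type controls and heat.

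Among the SIPs of the endoplasmic reticulum, SIP2;1 (AT3G56950, chr3:21078297-21079925, minus strand) fell steeply. It stood at 16.8, 16.7 and 21.2 RPKM in wild-type controls and 3.65, 5.63 and 4.37 RPKM after heat. In atdamt1 it stood at 14.8, 15.9 and 19.4 RPKM in controls and 4.37, 3.41 and 5.61 RPKM after heat. The means were 4.01-fold and 3.74-fold lower without overlap, and the log2 changes -1.80 ± 0.18 (adjusted p = 5.67e-06) and -1.71 ± 0.18 (adjusted p = 7.54e-06). It overlaps CRD1, a chlorophyll synthesis gene on the opposite strand, over 147 bases, and CRD1 was at 337 and 1033 RPKM (means) in wild-type controls and heat, the opposite direction. SIP1-1 was the most abundant SIP, at 55.7, 65.0 and 70.7 RPKM in wild-type controls, 53.3, 54.9 and 57.8 RPKM in heated wild type, 54.7, 59.1 and 64.6 RPKM in atdamt1 controls and 54.8, 52.9 and 55.7 RPKM in heated atdamt1. It did not pass, at -0.20 ± 0.10 and -0.12 ± 0.10 (adjusted p = 0.107 and 0.298), and on the median-of-ratios scale its sign turned and it was called higher in both genotypes (0.31 and 0.41, adjusted p = 0.0212 and 0.00493). SIP1-2 was at 4.87 ± 0.613 and 3.47 ± 0.189 RPKM in wild type and was called lower by 0.39 ± 0.13 (adjusted p = 0.020). That call was lost without control replicate 1 or heat replicate 3 (adjusted p = 0.0808 and 0.062), and in atdamt1 without control replicate 2 or heat replicate 2 (0.0888 and 0.0849). Its sign turned on the median-of-ratios and quantile scales. SIP1-2 also overlaps ANAC088 on the opposite strand over 444 bases, and ANAC088 was at 4.66 and 0.679 RPKM (means) in wild-type controls and heat, the same direction.

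Genotype was compared to ask whether the mutation shifts aquaporin transcripts. In controls, 0 of 23 members passed by limma, against a background of 0.0113% of all genes, and 3 were below an unadjusted p of 0.05, as were 4.63% of all genes. The log2 differences, atdamt1 minus wild type, were -0.39 ± 0.15 for NIP1-1, -0.75 ± 0.28 for PIP2-3 and -0.39 ± 0.16 for NIP6-1, each with an adjusted p of 0.935 from limma. NIP1-1 and NIP6-1 were lower in every atdamt1 control than in every wild-type control and no member was higher in all, where 9.83% of all genes had no overlap, 2.18% higher and 7.65% lower. NIP6-1 was below 1 RPKM in every atdamt1 library and entered the test through wild-type libraries alone. Its genotype comparisons were therefore not independent of the filter. After heat, 0 of 23 passed, against a background of 0%, and 1 was below an unadjusted 0.05, beside 7.52% of all genes. That was again NIP6-1, at -0.36 ± 0.16 (adjusted p = 0.663 from limma). The libraries of all 23 overlapped, where 13.5% of all genes had no overlap, 1.74% higher and 11.7% lower. The heat responses of the genotypes differed for 0 of 23 members, also against a background of 0%, and 1 was below an unadjusted 0.05, beside 3.38% of all genes. That was PIP2-3, with a difference of 0.94 ± 0.40 on the log2 scale (atdamt1 minus wild type, adjusted p = 0.979 from limma). For TIP1-1 the interval of the interaction was narrow, -0.39 to 0.20, while for TIP2-2 it ran from -0.89 to 2.24, so only large differences between genotypes could have been seen there. These comparisons share groups with the heat comparisons.

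Upstream sequence was searched for all 23 tested members, because heat shock factors bind repeats of the unit NGAAN. Of the members that rose, PIP2-3 and PIP2-7 held a match to a pair of such units. PIP1-5, PIP2-4 and TIP2-1 held none of the motifs searched. The 250 bases before the annotated start of the PIP2-3 and PIP2-7 genes are shown 5′ to 3′ on the gene's strand (RefSeq, TAIR10.1), with a match to TTCNNGAA (PIP2-3) or GAANNTTC (PIP2-7) in capitals.
PIP2-3, chr2:15617385-15617634, plus strand: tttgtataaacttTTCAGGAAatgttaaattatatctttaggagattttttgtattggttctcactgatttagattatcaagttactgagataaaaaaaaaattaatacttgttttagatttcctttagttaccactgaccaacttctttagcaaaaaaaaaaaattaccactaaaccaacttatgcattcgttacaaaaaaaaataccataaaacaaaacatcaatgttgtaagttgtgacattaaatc
PIP2-7, chr4:16708111-16708360, plus strand: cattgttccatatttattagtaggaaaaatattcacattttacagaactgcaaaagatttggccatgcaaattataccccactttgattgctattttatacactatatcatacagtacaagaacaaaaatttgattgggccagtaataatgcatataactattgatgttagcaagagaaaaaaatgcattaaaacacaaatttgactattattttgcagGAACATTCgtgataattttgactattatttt
Each motif reads the same on both strands. TTCNNGAA lay 237 bases before the start of PIP2-3 and was also found before NIP1-2, which fell, and 7.68% of 27443 promoters of that length hold it. GAANNTTC lay 31 bases before the start of PIP2-7 and was also found before SIP2;1, which fell, and TIP2-3, with 9.55% of all promoters holding it. The 3-unit heat shock element, in which GAA, TTC and GAA follow each other with NN between them and which contains both shorter motifs, was searched on both strands and was in 0 of the 23 tested members and in 0.386% of all promoters. ACGTG, searched on both strands, was before SIP1-1 and TIP1-1 (22.9% of all promoters), and CCGAC before PIP1-3, PIP2-5, TIP1-1 and TIP1-2 (12%). These matches describe the letters of the windows only.

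Other transport genes of the same membranes were compared from lists chosen for their known roles. Of 12 tonoplast pumps, channels and carriers tested, 0 were higher and 8 lower in wild type, where 9.41% of all genes were higher and 52.6% lower, and 0 and 7 in atdamt1, where 10.3% were higher and 56.2% lower. NHX1, a sodium and proton exchanger, changed by -1.47 ± 0.12 in wild type (adjusted p = 1.93e-06) and CAX1, a calcium exchanger, by -1.38 ± 0.23 (adjusted p = 2.99e-04). The list's median log2 change was -0.35, beside -0.41 for all genes. Of 6 tested plasma membrane proton pumps, 0 were higher and 2 lower in wild type (AHA5 and AHA8), and 1 was higher (AHA3, 0.84 ± 0.29, adjusted p = 0.022) and 3 lower in atdamt1, beside the same shares. Of 12 known regulators of aquaporin trafficking, turnover and phosphorylation, 4 were higher and 5 lower in each genotype, to be read against the same shares of all genes, and their median log2 changes were -0.22 and -0.35. RMA1, an endoplasmic reticulum ubiquitin ligase whose pepper homolog acts on a PIP2, went from 7.79 to 21.1 RPKM (means) in wild type, a log2 change of 1.33 ± 0.13 (adjusted p = 7.28e-06). RMA2, its relative, changed by 1.07 ± 0.16 (adjusted p = 1.34e-04). SIRK1 (AT5G10020, named so in RefSeq), a receptor kinase that phosphorylates aquaporins, went from 9.72 to 2.85 RPKM, a log2 change of -1.48 ± 0.12 (adjusted p = 1.28e-06).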

How the data were processed

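Expression was read from the deposited table of RPKM values, made by the authors for 32833 genes in 12 libraries. The submitters' processing notes list STAR, DESeq2 and the build TAIR10, with no role for any. How reads were counted per gene, whether by strand, and how those matching several genes were treated is not given in the sources used here. RPKM is relative to the library total. Dividing by the value of 1 read gave whole reads, within 0.1, in all libraries for 24381 of 24599 nuclear genes (99.1%). These recovered reads gave the depth, the reads of TIP4-1, the comparison of replicates that follows and the simulated data. The tests did not use them. Replicates differed well beyond counting noise (chi-square divided by its degrees of freedom, 12.5 to 43.9), so none were merged.

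Genes with at least 1 RPKM in at least 3 libraries (17628) were tested as log2(RPKM + 1) with limma 3.58.1 in R 4.3.3, using 1 mean per group, a variance trend and 8 residual degrees of freedom, two-sided, with Benjamini-Hochberg adjustment over all genes tested and a threshold of 0.05. A fold change on this scale understates that of low genes. Fold differences of means are of plain RPKM. There were 5 contrasts, comprising heat for either genotype, genotype for either treatment, and the interaction. The fit was tested on simulated data. Members with a mean of at least 10 RPKM in a group are given by library, others by range or mean, and list genes where past the threshold, up to 3 per list and contrast. The members and lists were chosen with earlier results of these data known. Alternatives were other pseudocounts, filters, scalings, fits and covariates, a replicate block and leaving out each library. Sequences and coordinates come from RefSeq TAIR10.1, read with Python 3.11.15 and Biopython 1.88.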

Additional observations from a re-analysis of the deposited data

How the results depend on the processing

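Of 1182 log2 changes of single genes under the alternatives, 1094 kept their direction and side of the threshold, 43 no longer passed, 15 newly passed and 30 changed sign. Some alternatives cannot alter a log2 change, only its spread, so direction was fixed there. They are the replicate block, no variance trend, only the compared groups, and leaving out a library of the other genotype. Under median-of-ratios scaling, wild type had 7 members higher and 6 lower and atdamt1 11 and 6 (all genes 28.8% and 26.7%, and 27.6% and 27%), with log2 ratios of the PIP sums of 0.83 and 1.06 and of the TIP sums turned to 0.21 and 0.41. With the chloroplast share as a covariate 1 member was higher in atdamt1, and a minimum of 5 RPKM, which tests fewer genes, left 7 lower there. Where not said, the cause was not tested.

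Leaving out 1 library gave 3 to 5 higher and 9 to 11 lower members in wild type, and 3 to 5 and 10 to 11 in atdamt1 (3 higher without control replicate 2). It gave log2 ratios of 0.17 to 0.46 (PIP) and -0.51 to -0.09 (TIP) in wild type and 0.43 to 0.63 and -0.22 to -0.02 in atdamt1. The PIP share ranged over 32.8% to 35.0% and 43.5% to 44.1% in wild-type controls and heat, and 32.1% to 32.7% and 42.0% to 44.2% in atdamt1.

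Signs that changed belonged to genes not called in the main analysis, except SIP1-2 and PIP2-5. In wild type, median-of-ratios gave PIP1-1 0.21, PIP1-3 0.40, PIP1B 0.48, SIP1-1 0.31 (now called) and SIP1-2 0.029, quantile normalization SIP1-2 0.15, and the chloroplast covariate PIP2-1 -0.12. Leaving out 1 library at a time gave PIP1-3 -0.24 to 0.046, PIP1B -0.24 to 0.075, PIP2-1 -0.21 to 0.32, PIP2-6 -0.14 to 0.16 and TIP2-3 -1.07 to 0.52 (the highest without control replicate 1). In atdamt1, median-of-ratios gave PIP2-6 0.42, SIP1-1 0.41 (both now called) and SIP1-2 0.054, and quantile normalization PIP2-5 0.0069, PIP2-6 0.067, SIP1-1 0.10 and SIP1-2 0.11. The covariate gave NIP6-1 -0.14, PIP1-1 -0.41, PIP1-3 -0.19, PIP2-1 -0.12 and TIP2-3 -1.08, and leaving out 1 library TIP2-3 -0.023 to 0.96 (the lowest without heat replicate 3).

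A replicate block left the counts at 4 higher and 10 lower in wild type and 5 and 11 in atdamt1. Correlations of same-numbered libraries ran from -0.43 to 0.53 over 18 pairs, highest between the control replicates 3, so not every pair deviated together and the numbers were not taken as pairing. The number of libraries limits precision for the uneven members TIP2-2, TIP2-3 and PIP2-4.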
